A study of Mus musculus with 12 samples.

Results

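Peritoneal lavage cells of mice carrying ID8 tumour cells were compared with lavage cells of mice that received no injection, gene by gene over the whole count table. The comparison used the 8 libraries whose labels name the line ID8 (defb29/Vegf-a) or no injection, 4 in each group, of 12 in the series. All mice were C57BL/6J. Mice of the ID8 group were injected intraperitoneally and lavaged on day 7 with 8 mL of phosphate-buffered saline. The series text gives 4000000 injected cells and the sample protocol gives 5000000. The remaining 4 libraries are labelled ID8-FSHR, the same model with the follicle-stimulating hormone receptor. They entered the filter on low counts, the scaling and the estimate of the spread, and some of their levels are given side by side. Fshr, the receptor gene, had 0, 0, 2 and 7 counts in the libraries labelled ID8-FSHR, 2 counts over the ID8 libraries and 0 in the uninjected ones, so these counts did not bear out that label. The age of the mice is not in the sources used here. A mock injection is not among the groups, and tumour cells and injection therefore cannot be told apart.

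ID8 is a line from the ovarian surface epithelium of C57BL/6 mice that grows on the peritoneal lining. The Defb29/Vegf-a derivative carries transgenes for beta-defensin 29 and vascular endothelial growth factor A, which draw leukocytes and vessels to the tumour. The peritoneal fluid of a healthy mouse holds mainly resident macrophages and B cells, with mast cells, T cells and few others. A lavage library is therefore a mixture of host leukocytes and, after injection, of tumour and lining cells. All values below are shares of that mixture, and fewer cells of a type cannot be told apart from less RNA per cell.

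The 8 libraries held 47419608 to 64333677 counts assigned to genes. Levels are given as CPM, read counts scaled to the effective library size. Defb29, the defensin transgene named in the label, was at 26.5, 20.8, 28.4 and 29.1 CPM in the ID8 libraries and had no count in the uninjected libraries. Of 15 markers of mesothelium and ovarian surface, 12 were higher in ID8 and 0 were lower, and their summed level was 3050 to 3792 CPM against 135 to 163 CPM. All 15 B cell markers were lower (498 to 717 against 3413 to 4526 CPM), as were 12 of 16 markers of large peritoneal macrophages (10619 to 13581 against 22491 to 27232 CPM) and 11 of 12 T cell markers (50.7 to 62.8 against 62.7 to 190.0 CPM). Without uninjected replicate 2, 6 T cell markers were lower. Of 11 monocyte markers 0 were higher and 6 lower (23652 to 30741 against 64369 to 77075 CPM). Of 8 pericyte and smooth muscle markers 6 were higher and 0 lower (20.4 to 33.6 against 1.18 to 2.35 CPM). With a filter of 1 CPM in 4 libraries, 3 of them were higher. These marker levels differed between the 2 groups compared throughout, and their part in the results was not tested. The summed level of erythroid genes ranged from 2.52 to 221 CPM among the ID8 libraries and from 2.58 to 89.2 CPM among the uninjected ones. Of the hepatocyte list, Ahsg was higher and Trf, the transferrin gene, was lower, the summed level was 1879 to 2614 against 3554 to 4341 CPM, and Alb, Ttr, Apoc3, Serpina1a, Fgb, Fga, Fgg and Cps1 had no count in any of the 8 libraries.

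Of 16915 genes that passed the filter on low counts, 5537 (32.7%) were higher in ID8 and 5310 (31.4%) were lower, at an adjusted p under 0.05 in edgeR's quasi-likelihood test. The increases were larger. At least 4-fold increases were called for 2236 genes (13.2%) and at least 4-fold decreases for 742 (4.39%). At 16-fold or more the counts were 1375 and 45, and at 64-fold or more they were 903 and 3. The median change was 1.41 log2 units among the genes that rose and -0.80 among those that fell. The genes at least 16-fold higher took 6.18%, 5.18%, 6.23% and 6.44% of the CPM of the ID8 libraries and 0.0595%, 0.0604%, 0.0588% and 0.0752% of the uninjected ones. The 5310 genes that fell took 40.3% ± 1.18 of the ID8 libraries and 61.9% ± 0.34 of the uninjected ones (SD, n = 4 each). Among 9968 genes with an average log2 CPM of at least 3, the median coefficient of variation was 7.61% within ID8 and 7.47% within the uninjected group. A complete gap between the ID8 and uninjected values was found for 62.5% of tested genes, so the gaps described below are common in these data.

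The largest changes are described for called genes with an average log2 CPM of at least 3 and no overlap between groups. Cell markers, genes already singled out in an earlier account of these data, antigen receptor segments and predicted models were left aside. The 12 largest increases of this kind were of genes with no count in the uninjected libraries. Mal2, a membrane protein of apical transport in epithelial cells (chr15:54571192-54602847, + strand), reached 289, 226, 254 and 282 CPM in the ID8 libraries. Against a floor of 3 counts over the 4 uninjected libraries it was at least 17717-fold higher (adjusted p = 1.34e-08, edgeR). Pnliprp1, a pancreatic lipase-related protein, was at 105, 123, 167 and 137 CPM and at least 8750.1-fold higher. Its neighbour on chromosome 19, Pnliprp2, a related lipase, was at 27.2, 26.7, 38.2 and 34.7 CPM and at least 2101-fold higher. Of the pancreatic acinar list, the lipase Pnlip and the elastases Cela1 and Cela3b passed the filter on low counts and all 3 were higher. Other digestive enzyme genes, Prss1, Cpa1, Ctrb1, Amy2a1 and Try4, had no count in the ID8 libraries.

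Transcription factors of other lineages stood among the same 12 genes. Pax3, a factor of neural crest and muscle progenitors, was at 35.2, 30.7, 39 and 40.4 CPM in ID8 (at least 2428-fold higher). Lhx6, a homeobox factor of interneurons, was at 31.8, 23.5, 35.4 and 32.9 CPM (at least 2074-fold higher). The ID8 libraries held mean levels of 59 ± 9.32 CPM of the kelch-domain gene Klhdc8a, 54.5 ± 7.54 CPM of the formin Daam2 and 51.9 ± 4.31 CPM of the chloride channel regulator Clca3a2 (SD, n = 4). The klotho-family gene Lctl was at 40.1 ± 6.1 CPM, the epidermal transglutaminase Tgm5 at 32.2 ± 4.12 CPM and the sperm potassium channel Kcnu1 at 27.5 ± 3.98 CPM (SD, n = 4). The microRNA host transcript Mir100hg was at 34.2 ± 2.66 CPM (SD, n = 4), at least 2292-fold higher. Genes without overlap were chosen, so each of these 12, with no uninjected count, had to be detected in every ID8 library. No ID8 value lay below 22.6 CPM, and the limit on the average level used in the choice bears on this too.

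**Figure D1:**
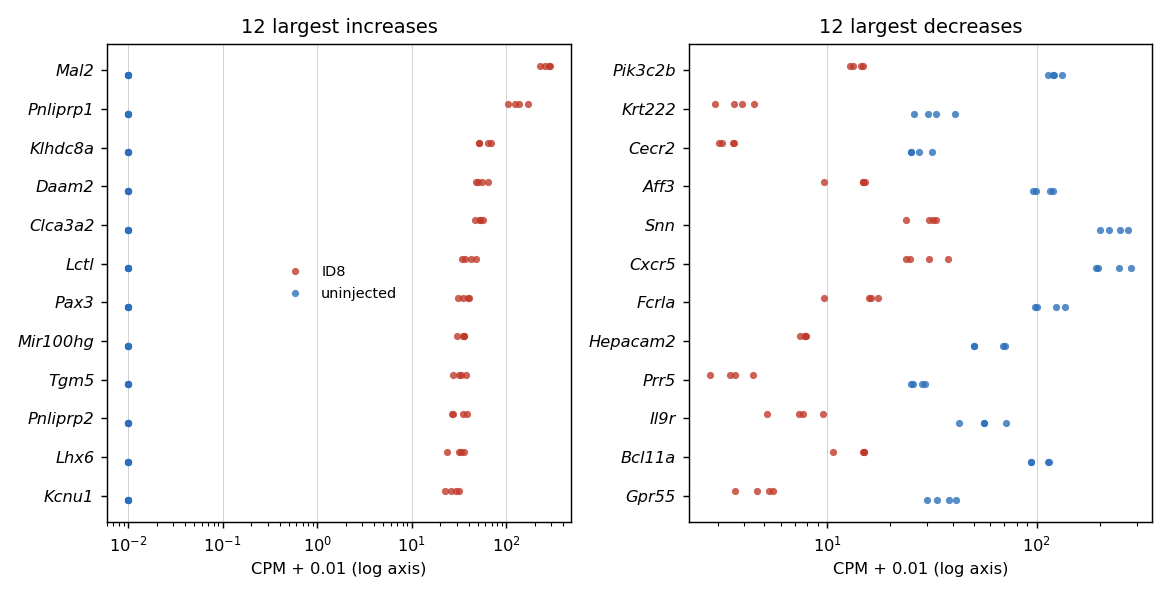
CPM + 0.01 on a log axis for the 12 largest increases (left) and the 12 largest decreases (right) chosen as described, each point 1 library. All 12 genes on the left had no count in the 4 uninjected libraries, and on the right the ID8 and uninjected points do not overlap for any gene.

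The 12 largest decreases chosen in the same way were between 7.47-fold and 8.74-fold, and none emptied the gene from the ID8 libraries. Pik3c2b, a class II phosphoinositide 3-kinase, was at 13.3, 12.9, 14.8 and 14.6 CPM in ID8 and 113, 121, 119 and 132 CPM in uninjected libraries (log2 fold change -3.13 ± 0.20 SE, adjusted p = 3.26e-08). Cxcr5, the chemokine receptor that guides B cells to follicles, was at 30.7, 24.8, 37.7 and 23.7 against 195, 192, 282 and 245 CPM. Bcl11a, a zinc finger factor needed for B cell development, was at 14.9, 10.6, 15 and 14.9 against 93.8, 93.5, 113 and 114 CPM. Several of the other decreases are also of genes known from B cells, whose 15 markers fell. Aff3, a nuclear factor of lymphoid cells, and Fcrla, an Fc receptor-like protein of B cells, had log2 fold changes of -2.98 and -2.95. Snn (stannin) was at 29.9 ± 4.25 against 236 ± 31.6 CPM (SD, n = 4). Gpr55, a receptor for lysophosphatidylinositol, was at 4.77 ± 0.837 against 35.7 ± 4.99 CPM (SD, n = 4). The interleukin-9 receptor gene Il9r was at 7.43 ± 1.79 against 56.4 ± 11.8 CPM. Prr5, a subunit of an mTOR complex, was at 3.56 ± 0.695 against 27.1 ± 2 CPM. Changes of -3.12, -3.04 and -2.94 log2 units were fitted for Krt222, a keratin-like gene, Cecr2, a bromodomain chromatin protein, and Hepacam2, an adhesion protein.

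The changes were not spread evenly over the chromosomes. Of 13765 protein-coding genes on chromosomes 1 to 19 and X, 35.8% were higher in ID8 and 32.0% were lower. On chromosome 15, 344 of 547 genes (62.9%) were higher and 98 lower, and the median log2 fold change lay 0.59 above that of all protein-coding genes. On chromosome 19, 273 of 487 genes (56.1%) were higher and 83 lower, with a median 0.37 above. Chromosome 11 followed with 528 of 1168 genes higher and 275 lower, 0.18 above. In the opposite direction, chromosome 14 had 93 of 462 genes higher and 212 lower (-0.27), chromosome 18 had 101 of 359 higher and 153 lower (-0.22), X had 125 of 445 higher and 184 lower (-0.20), and chromosome 12 had 116 of 450 higher and 175 lower (-0.16).

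In each ID8 library chromosome 15 stood highest and chromosome 14 lowest of the chromosomes. The chromosome 15 level, the median difference of log2(CPM + 0.5) from the uninjected mean minus that of all protein-coding genes, was 0.51, 0.46, 0.51 and 0.53 in the ID8 libraries and between -0.0040 and 0.0018 in the uninjected ones. The chromosome 19 level was 0.38, 0.28, 0.36 and 0.37 in ID8, and the chromosome 14 level was -0.26, -0.23, -0.27 and -0.24. The uninjected levels lie near 0 by construction, since they are taken from their own mean. The 4 ID8-FSHR libraries, compared with the same uninjected libraries, were at 0.61, 0.29, 0.52 and 0.53 on chromosome 15, at 0.28, 0.14, 0.27 and 0.29 on chromosome 19 and at -0.26, -0.15, -0.22 and -0.26 on chromosome 14. No DNA measurement was used here.

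**Figure D2:**
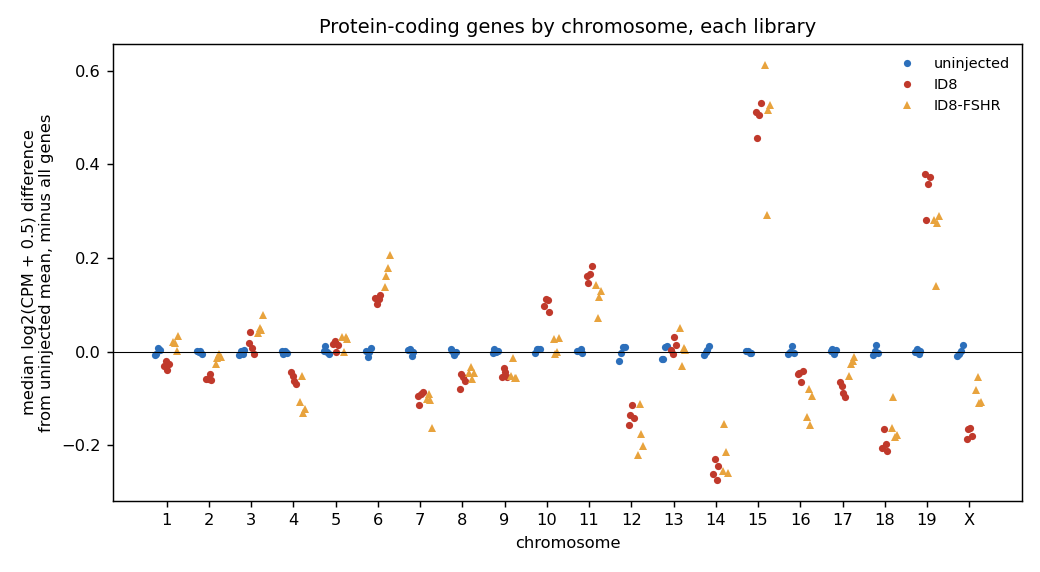
Median over the protein-coding genes of each chromosome of the difference in log2(CPM + 0.5) from the uninjected mean, minus the same median over all protein-coding genes, with 1 point per library. ID8 points stand at 0.46 to 0.53 on chromosome 15 and at 0.28 to 0.38 on chromosome 19, and at -0.27 to -0.23 on chromosome 14.

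The shifts were spread over many windows of these chromosomes. In windows of 10 Mb with at least 20 genes of average log2 CPM of at least 3, all 7 windows of chromosome 15, all 6 of chromosome 19 and all 12 of chromosome 11 had a median above that of all such genes. All 6 windows of chromosome 12, all 6 of chromosome 14, all 4 of chromosome 18 and all 6 of X lay below. Windows with fewer genes were less uniform, and 2 of chromosome 14 (0.77 and 0.05), 1 of chromosome 18 (0.14) and 3 of X (4.51, 0.57 and 0.20) lay above. Over the whole genome, 91 of 186 windows lay above and 95 below. The window medians of chromosome 15 ranged from 0.33 to 0.74. Among windows of at least 20 such genes, the highest of any chromosome was the first 10 Mb of chromosome 5 at 1.30, where 18 genes were higher and 0 lower. When genes with an absolute log2 fold change of 2 or more were left out, the median of chromosome 15 remained 0.46 above and that of chromosome 19 remained 0.39 above.

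Named genes of chromosome 15 differed in the size of their increase. The coatomer subunit Copz1 was at 159, 176, 139.8 and 162 CPM in ID8 and 116, 106, 108 and 109.7 CPM in uninjected libraries (log2 fold change 0.53 ± 0.07 SE). The F-box protein Fbxo4 was at 33.4, 33.5, 34.4 and 32.1 against 14.6, 13.1, 13.7 and 14.9 CPM (1.24 ± 0.10). In neither gene did the groups overlap, and the cytochrome gene Cyc1, the 14-3-3 gene Ywhaz and the long non-coding Pvt1 rose alongside them (0.79, 0.46 and 0.79). The vitamin D receptor Vdr, at 84.4 ± 11.9 against 0.92 ± 0.433 CPM (SD, n = 4), and the glycosyltransferase Mgat3, at 83.7 ± 13.6 against 0.221 ± 0.246 CPM (SD, n = 4), changed far more. Other genes of the chromosome fell. The log2 fold change was -2.55 for the Polycomb subunit Cbx7, -2.04 for the imprinted transcript Peg13, -2.93 for Prr5 and -0.53 for the deacetylase Hdac10. Peg13 lies in an intron of Trappc9. Myc, the proto-oncogene next to Pvt1 and named here after its values were seen, was at 91.6, 99.1, 59.6 and 78.6 CPM in ID8 and 119, 114, 176 and 116 CPM in uninjected libraries (-0.67 ± 0.16, adjusted p = 0.00269), without overlap.

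Classes of transcripts differed in how often they were called. Of 13779 protein-coding genes, 35.8% were higher and 32.0% lower. Among 1437 genes of long non-coding RNA types, 30.7% were higher and 24.4% lower. Of these genes 21.2% were at least 4-fold higher and 8.63% at least 4-fold lower, against 13.2% and 4.39% over all genes. The 3383 least abundant genes of any type had similar shares, 20.6% at least 4-fold higher and 9.31% at least 4-fold lower. Whether the large changes of the long non-coding types go beyond those of other genes at their level was not tested. Pseudogene types were called higher in 10.1% and lower in 23.9% of 694 genes. Of 736 models of the class TEC, regions whose transcription awaits experimental proof, 12.6% were higher and 25.7% lower. None of 22 small nucleolar RNA genes was higher and 4 were lower by edgeR. All but 12 of 178 immunoglobulin segments were lower and none was higher. By average level, 46.3% of the 3383 most abundant genes were lower and 29.5% higher, whereas 17.7% of the 3383 least abundant were lower and 24.7% higher.

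**Figure D3:**
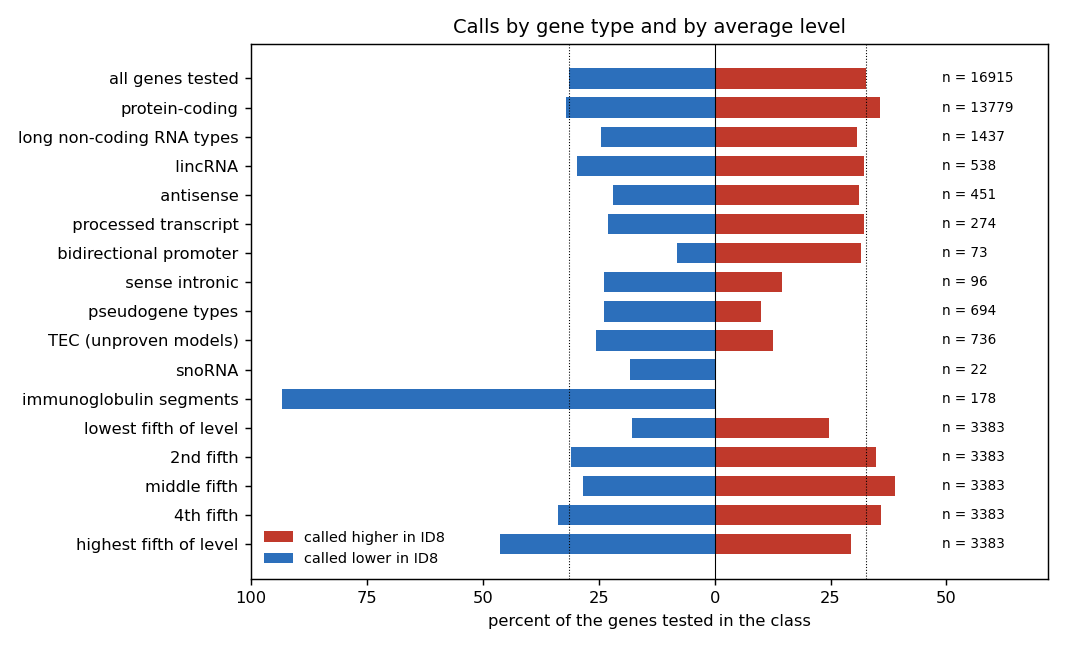
Percent of genes called higher (right) and lower (left) in ID8 for gene types of the annotation and for equal bins of the average level, with dotted lines at 32.7% and 31.4% for all genes tested. Immunoglobulin segments stand at 93.3% lower, and pseudogene types at 10.1% higher.

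Among named long non-coding RNAs, which act mostly in the nucleus, 15 of 31 tested were higher and 12 lower. Malat1 and Neat1, neighbours on chromosome 19 that mark nuclear speckles and paraspeckles, moved in opposite directions. Malat1 was at 4376, 3649, 3941 and 3868 CPM in ID8 and 2454, 2743, 1839 and 2368 CPM in uninjected libraries (log2 fold change 0.75 ± 0.12 SE, adjusted p = 0.000141). Neat1 was at 316, 294, 212 and 264 against 471, 725, 374 and 391 CPM (-0.85 ± 0.21, adjusted p = 0.00281). The groups did not overlap for either gene. Firre, an X-linked RNA that escapes X inactivation, rose by 1.24, while Oip5os1 fell by 0.51. The list also holds Ptprv, which in mice is a gene for a receptor phosphatase and rose by 3.56. Kcnq1ot1, Dleu2 and Tug1, with adjusted p of 0.118, 0.207 and 0.132, were not called.

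The X inactivation center was lower in ID8. Xist, the RNA that coats the inactive X, was at 443, 429, 362 and 384 CPM in ID8 and 1296, 1623, 1347 and 1300.0 CPM in uninjected libraries (log2 fold change -1.78 ± 0.21 SE, adjusted p = 8.95e-06). Ftx, a positive regulator of Xist, was at 6.29, 5.06, 5.58 and 5.29 against 24.4, 26.5, 27.2 and 28.5 CPM (-2.26 ± 0.13). Both genes were separated between groups. All 7 tested genes of the list of X inactivation and sex-linked genes were lower, Kdm6a, a histone demethylase that escapes X inactivation, with a log2 fold change of -0.73. The Y-linked genes Ddx3y, Uty, Kdm5d and Eif2s3y had no count in any of the 8 libraries. No source used here says whether the counting used strand, so reads of Xist and its antisense partner Tsix, which had 58 counts over the 8 libraries, cannot be told apart.

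Genes of caveolae and of the contractile apparatus were mostly higher. So were the pericyte and smooth muscle markers, with a summed level of 20.4 to 33.6 CPM in ID8, and the mesothelium and ovarian surface markers, with 3050 to 3792 CPM. The part of either marker list was not tested. The pericyte and smooth muscle markers and the contractile list share genes, among them Myh11 and Cnn1, both higher. Of 8 tested genes of caveolae, the small plasma membrane pits, 7 were higher and 0 lower (median log2 fold change 3.57, against -0.03 over all genes tested). Cavin1, a coat protein of caveolae, was at 207, 185, 223 and 227 CPM in ID8 and 3.18, 2.62, 2.08 and 2 CPM in uninjected libraries (6.41 ± 0.25 SE, adjusted p = 1.14e-09). Cavin3 was at 28.1 ± 2.69 against 0.298 ± 0.0678 CPM (SD, n = 4). Of 18 genes of the contractile actin cytoskeleton, 12 were higher and 2 lower (median 1.97), among them the tropomyosin Tpm1 at 472, 373, 446 and 482 against 29.2, 33.1, 29.9 and 32.1 CPM and the non-muscle myosin Myh10 (5.10). Cnn2 and Flna of this list were lower, and Acta2, Tagln, Tpm2 and Synpo2 were not called. Without ID8 replicate 1, ID8 replicate 3 or uninjected replicate 2, 1 of the list was lower. Gap junction genes were 5 higher and 1 lower of 8, and the lower one lost its call without any 1 of several libraries. Gja1, the connexin of most epithelia and fibroblasts, was at 132, 107, 128 and 133 against 0.276, 0.184, 0.485 and 2.33 CPM (7.30 ± 0.61), and 1 of the 4 uninjected libraries held most of its uninjected signal.

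Tetraspanins, scaffold proteins of membranes, were 12 higher (50%) and 7 lower (29.2%) of 24, against 32.7% and 31.4% over all genes. They were led by Tspan8 at 221, 184, 212 and 219.9 CPM in ID8 and 0, 0.148, 0 and 0.0218 CPM in uninjected libraries. Septins split evenly, with 4 higher and 4 lower of 10 (40% each), and the leukocyte septin Septin1 fell by 2.43. Tubulins were 9 higher and 4 lower of 16, with 2 lower without uninjected replicate 4. Tuba1a rose by 1.36 and Tuba4a fell by 1.54 on the log2 scale.

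Many genes of the primary cilium and of hedgehog signalling, which runs through it, were higher. Of 29 tested cilium assembly genes, 19 were higher, Ift140 and Kif3b were lower and 8 were not called (median 0.82). Ift81, a subunit of the intraflagellar transport train, was at 19.6, 15.3, 23.3 and 20.1 CPM in ID8 and 0.671, 1.33, 1.29 and 1.18 CPM in uninjected libraries (4.13 ± 0.33 SE). Ift122, of the retrograde train, was at 28.9 ± 2.7 against 2.77 ± 0.37 CPM (SD, n = 4). In the hedgehog pathway 9 of 10 tested genes were higher and 0 lower (median 3.02). Cdon, a co-receptor, was at 422, 355, 441 and 460.0 against 8.07, 11.3, 8.89 and 8.28 CPM (5.52 ± 0.30, adjusted p = 8.4e-09). Gas1, another co-receptor, was at 98.3, 93.8, 102 and 111 against 0.631, 0.332, 0.606 and 1.26 CPM. Gli3, a transcription factor at the end of the pathway, was at 23.9, 19.9, 29.6 and 23.4 against 0.118, 0, 0.0808 and 0.0436 CPM. No uninjected library reached the lowest ID8 value of any of these 3 genes. The pathway's common target genes Gli1 and Hhip did not pass the filter on low counts, and Ptch1 was not called.

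Growth factor pathways of the epithelium and stroma differed in direction by member. Of 27 tested genes of the BMP and GDF group, 20 were higher and 1, Smad1, was lower (median 1.44). The lower count was 0 with DESeq2, with median-of-ratios size factors and without any 1 of several libraries, and 2 in some other settings. The ligand gene Bmp4 was at 30.3, 19.2, 26.8 and 26.7 CPM in ID8 and 0, 0, 0.0808 and 0.131 CPM in uninjected libraries (8.94 ± 0.62 SE), and the inhibitory Smad6 rose by 4.93. Of 15 FGF ligands and receptors, 8 were higher and 4 lower. Fgfr2, an epithelial receptor, was at 10.5, 8.73, 9.34 and 11.9 against 0.0789, 0.148, 0 and 0.152 CPM, whereas Fgfr1 was at 351, 475, 376 and 404 against 825, 769.9, 702 and 649.8 CPM (-0.88 ± 0.24, adjusted p = 0.00643). The 2 receptors therefore moved in opposite directions, each without overlap. Among 16 other receptor tyrosine kinases, 8 were higher and 4 lower, with Ptk7, a receptor of planar polarity, at 59.5 ± 6.24 against 0.109 ± 0.0565 CPM and Met, the hepatocyte growth factor receptor, at 15.5 ± 2.42 against 0.58 ± 0.276 CPM (SD, n = 4).

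The Hippo pathway, a kinase cascade that holds the coactivator YAP out of the nucleus, had 19 of 29 tested genes higher and 6 lower (median 3.83). The kinases and adaptors of the cascade were divided: Lats2, Stk4, Sav1 and Mob1a were lower, Stk3 and Mob1b were higher, and Lats1 and Nf2 were not called. The higher genes also include Yap1, Wwtr1 and all 4 Tead factors. Of the targets, Ccn2, a matricellular growth factor, was at 279, 195, 92.1 and 194 CPM in ID8 and 0, 0.332, 0 and 0.0436 CPM in uninjected libraries (10.87 ± 0.78 SE, adjusted p = 8.34e-08). Ccn1, a related protein, was at 192, 156, 94.3 and 143 against 0.0395, 0.148, 0.121 and 0.566 CPM (9.42 ± 0.57). ID8 replicate 3 was the lowest ID8 library for both genes, and every ID8 value was far above the uninjected ones. The atypical cadherin Fat1, an upstream regulator, was at 227, 176, 249 and 253 against 0.789, 1.4, 0.687 and 2.44 CPM.

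The promoter of Ccn1 is shown because it holds the core GGAATG that Tead factors bind, here as its reverse complement CATTCC, starting 103 bases before the RefSeq start. That of Gpr55, which fell, is shown because it holds GAGGAAGT as ACTTCCTC 105 bases before the start. GAGGAAGT is a core bound by the myeloid and B cell factor PU.1. Among the largest decreases, only the Gpr55 promoter held it. Those of Pik3c2b, Aff3, Snn, Fcrla, Hepacam2, Il9r and Bcl11a had no match, and Krt222, Cecr2, Cxcr5 and Prr5 had no single promoter entry. Capitals mark the match, both strands were searched, and the windows run from 250 bases before to 50 after the start in RefSeq on GRCm38.p6.
Ccn1, chr3:145649936-145650235, - strand: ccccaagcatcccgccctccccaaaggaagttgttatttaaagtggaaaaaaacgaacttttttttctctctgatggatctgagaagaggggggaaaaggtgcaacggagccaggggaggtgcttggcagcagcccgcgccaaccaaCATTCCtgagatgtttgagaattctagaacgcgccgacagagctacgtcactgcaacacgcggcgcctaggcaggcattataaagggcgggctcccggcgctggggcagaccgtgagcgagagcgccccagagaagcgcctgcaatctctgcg
Gpr55, chr1:85961006-85961305, - strand: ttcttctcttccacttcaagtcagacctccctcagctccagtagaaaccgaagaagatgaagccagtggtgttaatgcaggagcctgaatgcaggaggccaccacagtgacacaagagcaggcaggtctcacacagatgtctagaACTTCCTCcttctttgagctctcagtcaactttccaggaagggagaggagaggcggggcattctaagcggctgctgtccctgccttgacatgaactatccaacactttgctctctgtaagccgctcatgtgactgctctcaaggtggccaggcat

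Of 13756 protein-coding genes tested with a unique symbol, 8687 matched exactly 1 promoter entry. GGAATG or its reverse complement occurred in 11.5% of these promoters, in 15.8% of the 1057 promoters of genes at least 4-fold higher and in 11.7% of the 247 of genes at least 4-fold lower. GAGGAAGT or its reverse complement occurred in 3.30% of all, in 1.51% of those at least 4-fold higher and in 5.67% of those at least 4-fold lower. The E-box CAGGTG occurred in 17.4% of all, 22.9% of those at least 4-fold higher and 34.8% of those at least 4-fold lower. Other motifs were searched as well, and their shares are given in the same order. TATAAA occurred in 7.84%, 10.5% and 11.7%, TGANTCA, with N any base, in 5.01%, 6.81% and 8.50%, and CACGTG in 9.74%, 6.34% and 7.69%. GGGCGG occurred in 63.8%, 59.1% and 44.5%, and CCAAT in 39.3%, 34.6% and 36.0%. Promoters of genes with large changes in either direction had a lower median CG content for their base composition. The median ratio of observed to expected CG was 0.756 over all promoters, 0.589 for genes at least 4-fold higher and 0.425 for genes at least 4-fold lower, at a median GC content of 60.7%, 60.3% and 56.3%. Members of a gene family share sequence and level, and a match of letters is a description of the window.

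To show the range, the promoters of the first listed increase, decrease and uncalled reference gene that have a single entry are given with CG in capitals. That of Pnliprp1 held 3 CG dinucleotides, that of Pik3c2b 27 and that of Gapdh 12. Pik3c2b thus had a CG-rich promoter although the promoters of its class were on the whole CG-poor.
Pnliprp1, chr19:58728637-58728936, + strand: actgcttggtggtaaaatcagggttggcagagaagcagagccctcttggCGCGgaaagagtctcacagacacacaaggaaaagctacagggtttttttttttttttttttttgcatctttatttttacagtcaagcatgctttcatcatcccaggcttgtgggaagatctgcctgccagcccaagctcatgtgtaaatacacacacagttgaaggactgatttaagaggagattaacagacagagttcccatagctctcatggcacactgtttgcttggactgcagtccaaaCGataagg
Pik3c2b, chr1:133045762-133046061, + strand: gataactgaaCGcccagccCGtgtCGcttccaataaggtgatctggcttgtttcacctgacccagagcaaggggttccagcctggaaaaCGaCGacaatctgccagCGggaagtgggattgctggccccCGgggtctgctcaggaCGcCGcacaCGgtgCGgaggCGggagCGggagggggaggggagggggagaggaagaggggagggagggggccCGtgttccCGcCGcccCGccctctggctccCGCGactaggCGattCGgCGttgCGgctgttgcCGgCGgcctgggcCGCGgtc
Gapdh, chr6:125165724-125166023, - strand: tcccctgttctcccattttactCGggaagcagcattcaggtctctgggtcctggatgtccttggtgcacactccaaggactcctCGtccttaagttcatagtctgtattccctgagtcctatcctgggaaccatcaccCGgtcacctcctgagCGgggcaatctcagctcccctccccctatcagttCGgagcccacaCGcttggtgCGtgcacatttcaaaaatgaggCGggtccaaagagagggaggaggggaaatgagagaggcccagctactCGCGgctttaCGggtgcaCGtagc

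Adhesion genes best known from neurons were also mostly higher. Of 32 tested protocadherins, 20 were higher, all at least 4-fold, and 5 were lower (median 2.89). Pcdh7 was at 28.1, 22.7, 28.9 and 27.6 CPM in ID8 and 1.7, 2.99, 1.01 and 3.22 CPM in uninjected libraries. The 5 that fell are all of the gamma cluster, and 3 fell without ID8 replicate 1, ID8 replicate 2 or uninjected replicate 1. The gamma members share their 3' exons, so counts can be split or lost between members. Of 25 synapse and axon genes, 15 were higher and 5 lower (median 0.99). Dlg2, a scaffold of the postsynaptic density, was at 39.1, 36.3, 49 and 45.5 against 0.118, 0.111, 0.0606 and 0.174 CPM (8.50 ± 0.33 SE), and the adhesion molecule Ncam1 rose by 4.78.

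Ion channels and transporters went both ways. Potassium channels, which set the membrane potential, were 11 higher and 19 lower of 37 (median -0.63). Kcnd2, a channel of transient currents in neurons and heart, was at 85.7, 75.6, 97 and 92.7 CPM in ID8 and 0.0789, 0.0369, 0 and 0 CPM in uninjected libraries. The group of TRP, Piezo and anoctamin channels was 10 higher and 5 lower of 22. Ano1, the calcium-activated chloride channel of epithelia, was at 199.7, 166, 231 and 225 against 0.454, 0.295, 0.485 and 0.871 CPM, and Trpv2, a cation channel of macrophages, was at 12.8, 13, 11.7 and 13.3 against 39.4, 42.8, 42.4 and 49.2 CPM (-1.78 ± 0.20 SE, adjusted p = 5.83e-06). The solute carriers, with 89 higher and 79 lower of 248 (35.9% and 31.9%), lay close to the share over all genes tested. ABC transporters were 12 higher (32.4%) and 15 lower (40.5%) of 37. The efflux pump Abcg2 was at 20.8 ± 2 against 4.11 ± 0.732 CPM and Abca6, whose substrate is unsettled, at 5.66 ± 3.82 against 35.8 ± 6.74 CPM (SD, n = 4). Aquaporins were 3 higher and 1 lower of 5. The lower one, the glycerol channel Aqp9, fell by 1.19. Vacuolar ATPase genes were 6 higher and 6 lower of 21 (28.6% each), close to the shares over all genes. Without ID8 replicate 1, ID8 replicate 4 or uninjected replicate 4, 3 were lower.

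Genes named as purinergic receptors, a family through which extracellular nucleotides act on leukocytes, fell in 61.5% of members. Among the lists outside cell markers with at least 10 tested members, only the histone lysine methyl enzymes (62.0%) passed this share. Of 13 tested genes so named, 8 were lower and 1 higher (median -0.73). The lower ones include P2ry10 and its relative P2ry10b, which are receptors for lysophospholipids, so the list is not of nucleotide receptors alone. P2ry10, a receptor of lymphocytes, was at 18.8, 17.9, 20.4 and 16.9 CPM in ID8 and 52.6, 80.5, 90.8 and 75.8 CPM in uninjected libraries (-2.02 ± 0.19 SE, adjusted p = 1.13e-06). P2rx1, an ATP-gated channel, was at 13.5, 17.6, 18.4 and 17.4 against 40.6, 35, 42 and 31.7 CPM (-1.16 ± 0.26). The groups did not overlap for P2ry10 or for P2rx1. Lysophospholipid genes were 7 higher (41.2%) and 8 lower (47.1%) of 17, against 32.7% and 31.4% over all genes. Enpp2, which makes lysophosphatidic acid in the extracellular space, was at 14.9, 20.7, 21.7 and 25.4 against 0.947, 0.59, 0.444 and 0.697 CPM. Orphan and adhesion G protein-coupled receptors were 23 higher (34.3%) and 25 lower (37.3%) of 67, near the shares over all genes. The collagen receptor Adgrg1 was at 196 ± 19 against 0.323 ± 0.333 CPM (SD, n = 4).

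Inside the cell, feedback regulators of MAP kinases were 11 higher and 6 lower of 19 (median 1.36). The phosphatase Dusp5 was at 77.2, 51, 59.3 and 67.7 CPM in ID8 and 5.05, 5.81, 7.64 and 7.36 CPM in uninjected libraries, and Dusp8 rose by 5.91. Without ID8 replicate 3, ID8 replicate 4 or uninjected replicate 3, 3 of the MAP kinase regulators were lower. Feedback genes of cytokine and NF-kappaB signalling were 4 higher and 8 lower of 20. Tnip1, a partner of the deubiquitinase A20, was at 160.3, 133, 151 and 186 against 37.8, 42.3, 41.7 and 46.1 CPM, whereas Nfkbid, a nuclear inhibitor protein, was at 5.26, 4.9, 3.78 and 3.97 against 15.1, 15.9, 16.8 and 18.3 CPM (-1.88 ± 0.22 SE). Each of these genes was separated between groups. Regulators of G protein signalling were 6 higher (37.5%) and 4 lower (25%) of 16, near the shares over all genes, and Rgs2 fell by 1.36. Nuclear receptors were 16 higher and 6 lower of 29 (median 0.82), and the mineralocorticoid receptor Nr3c2 was among the lower ones at 4.72, 2.84, 4.76 and 4.38 against 27.4, 18.7, 25.7 and 25.5 CPM.

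**Figure D4:**
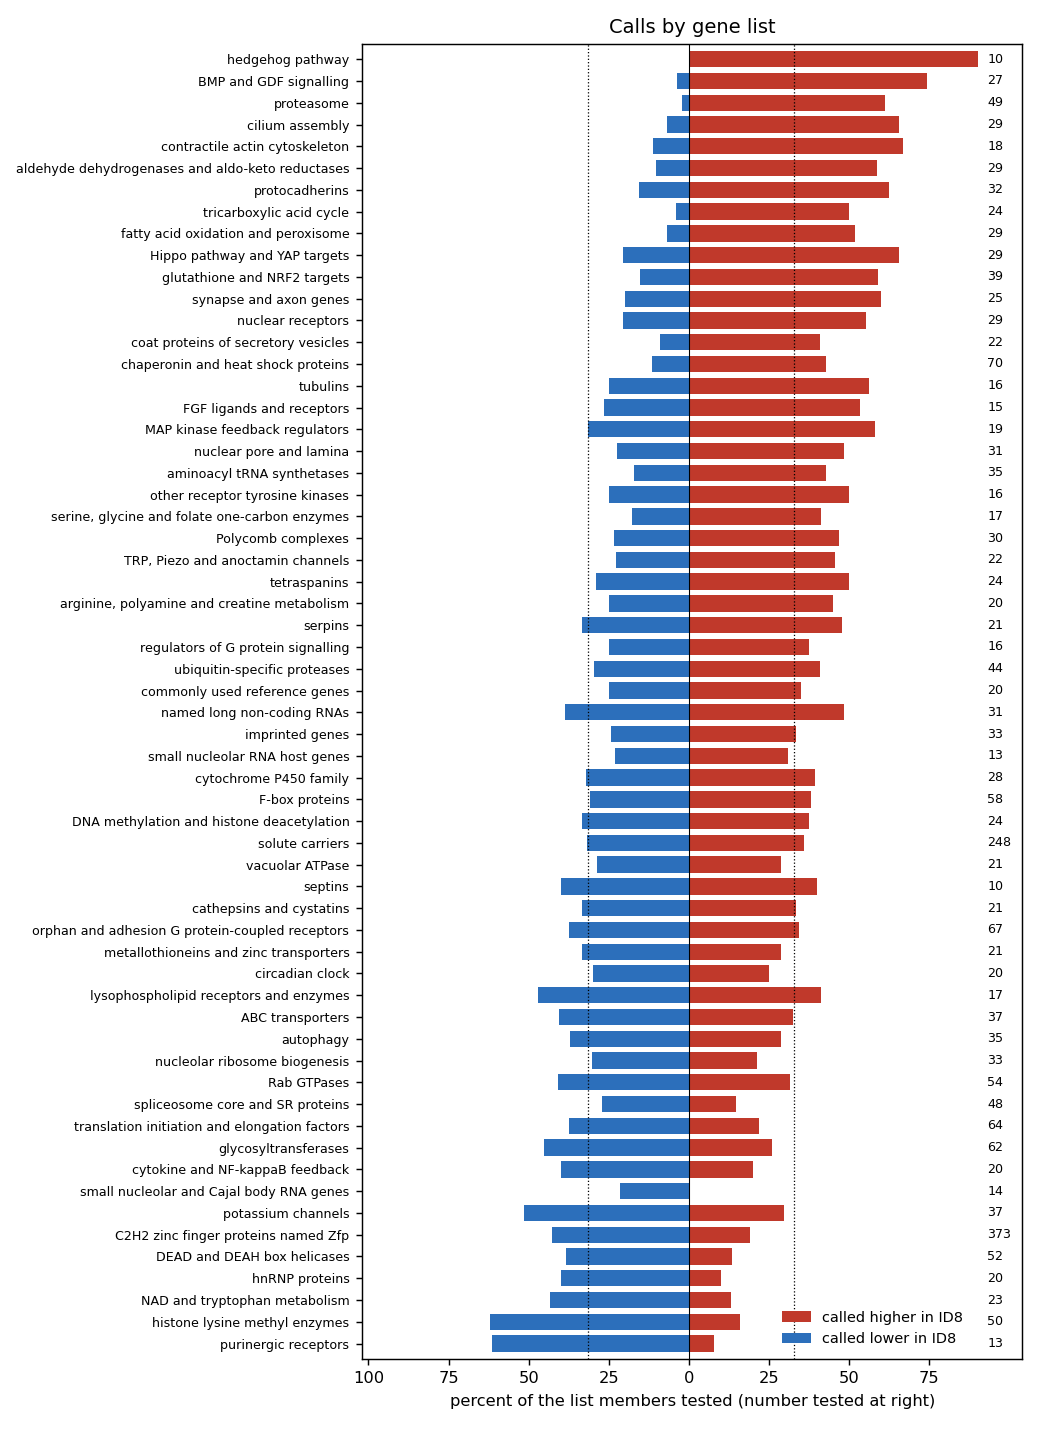
Percent of tested members called higher (right) and lower (left) in ID8 for gene lists with at least 10 tested members, ordered by the difference, with the number tested at the right and dotted lines at 32.7% and 31.4% for all genes tested. Hedgehog genes stand at the top with 9 of 10 higher. Genes named as purinergic receptors, P2ry10 and P2ry10b among them, stand at the bottom with 8 of 13 lower.

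Enzymes of detoxification were mostly higher. Of 39 tested genes of glutathione metabolism and NRF2 targets, 23 were higher and 6 lower (median 0.80), and of 29 aldehyde dehydrogenases and aldo-keto reductases 17 were higher and 3 lower. Gstm2, a glutathione transferase, was at 105, 102, 148 and 134 CPM in ID8 and 0.355, 0.184, 0.0404 and 0.479 CPM in uninjected libraries (8.86 ± 0.39 SE, adjusted p = 1.82e-09). Aldh1a1, which makes retinoic acid, was at 78.2, 64.7, 85.9 and 75.8 against 0.118, 0.0369, 0.202 and 0.218 CPM, and the extracellular superoxide dismutase Sod3 rose by 7.01. Glutathione transferases of the mu class are near-identical copies, so their separate counts are uncertain. Cytochrome P450 genes were 11 higher (39.3%) and 9 lower (32.1%) of 28, near the 32.7% and 31.4% over all genes. Cyp1b1, which oxidises steroids and aromatic hydrocarbons, was at 539, 423, 375 and 484 against 0.0395, 0, 0 and 1.74 CPM, and uninjected replicate 4 held nearly all of its uninjected signal. Cyp4f18, a leukotriene oxidase of leukocytes, was at 21.5, 14.4, 16.5 and 19.4 against 86.1, 80.9, 105 and 109 CPM.

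Genes of mitochondrial fuel metabolism had smaller changes. In the tricarboxylic acid cycle 12 of 24 genes were higher and 1, Idh3g, was lower (median 0.21). Idh2, an isocitrate dehydrogenase, was at 100.0, 96.6, 92.5 and 102 CPM in ID8 and 60.3, 48.4, 48.5 and 47 CPM in uninjected libraries (0.94 ± 0.09 SE, adjusted p = 8.53e-07). Pyruvate carboxylase, Pcx, was at 11.8 ± 0.851 against 2.4 ± 0.914 CPM (SD, n = 4). Of 29 genes of fatty acid oxidation and peroxisomes, 15 were higher and 2 lower (median 0.19). Cpt2, of the mitochondrial carnitine shuttle, was at 35.7, 32.1, 35.4 and 38.3 against 14.3, 13.9, 15.2 and 15.9 CPM, and the peroxisomal oxidase Acox3 at 45.6, 44.3, 44.2 and 51.3 against 106, 92.3, 105 and 116 CPM. Cpt2 thus rose and Acox3 fell, each with no overlap of the groups. Among enzymes of serine, glycine and folate 7 were higher and 3 lower of 17, with the serine pathway enzyme Psat1 up by 1.77.

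Other metabolic genes fell or split. NAD and tryptophan metabolism had 3 higher and 10 lower of 23 (median -0.34). Kynu, kynureninase, was at 4.4, 2.26, 4.38 and 3.97 CPM in ID8 and 25.2, 24, 28.5 and 32.9 CPM in uninjected libraries (-2.88 ± 0.23 SE), and Cd38, the NAD glycohydrolase of leukocytes, was at 122, 95.6, 133 and 113 against 352, 272, 424 and 416 CPM (-1.66 ± 0.17). Both were lower in every ID8 library than in any uninjected one. In arginine, polyamine and creatine metabolism 9 were higher and 5 lower of 20, with 3 lower without ID8 replicate 3 or the second ID8-FSHR library. Ass1, which regenerates arginine from citrulline, was at 20, 14.4, 11.3 and 15.5 against 79.7, 78.5, 84.1 and 92.6 CPM, and the creatine enzyme Gamt rose by 1.90. Metallothioneins and zinc transporters were 6 higher (28.6%) and 7 lower (33.3%) of 21, close to the shares over all genes. Slc39a10, a zinc importer, was at 155, 155, 155 and 167 against 67, 62.1, 59.8 and 61.1 CPM, and the zinc-binding Mt1 fell by 0.91.

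Zinc finger genes and histone methyl enzymes fell more often than they rose. Of 373 tested zinc finger genes named Zfp, 71 were higher and 159 lower (median -0.20), mostly by small amounts, with 8 at least 4-fold lower and 20 at least 4-fold higher. Zfp462, a chromatin regulator, was among the latter at 126 ± 11.7 against 0.207 ± 0.153 CPM (SD, n = 4). Of 50 histone lysine methyltransferases and demethylases, 8 were higher and 31 lower (median -0.33). Kdm7a, a demethylase, was at 132, 129, 154 and 134 CPM in ID8 and 305, 348, 341 and 358 CPM in uninjected libraries (-1.30 ± 0.13 SE, adjusted p = 1.27e-06). Kdm6b, which removes the Polycomb mark, moved against its list and was at 81.6, 79.4, 91.7 and 96.7 against 39.6, 46.2, 41.2 and 42 CPM (1.05 ± 0.13). Polycomb genes were 14 higher and 7 lower of 30, with 4 lower without the second ID8-FSHR library. The related subunits Cbx6 and Cbx7 went in opposite directions, Cbx6 at 113, 98.4, 117 and 109 against 31, 31.4, 33.3 and 32.9 CPM and Cbx7 at 11.3, 9.23, 13 and 9.82 against 56, 66.9, 62 and 68.3 CPM. Genes of DNA methylation and histone deacetylation were 9 higher (37.5%) and 8 lower (33.3%) of 24, close to the shares over all genes. Uhrf1, which brings the methyltransferase to new DNA, was at 50.3, 62.8, 30.6 and 42.1 against 15.9, 13.7, 17.2 and 10.3 CPM, and Hdac9 fell by 1.11.

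Among RNA processing genes, few were called higher. Spliceosome core and SR proteins were 7 higher (14.6%) and 13 lower (27.1%) of 48, both shares below those over all genes, hnRNP proteins 2 higher and 8 lower of 20, and DEAD and DEAH box helicases 7 higher and 20 lower of 52. With only the 8 libraries compared, these counts were 13 and 9, 6 and 5, and 13 and 17, and without the second ID8-FSHR library in the shared fit the first pair of lists stood at 12 and 9 and at 6 and 4, so that the balance of both turned. The SR protein Srsf5 was at 254, 276, 196 and 228 CPM in ID8 and 338, 383, 358 and 368 CPM in uninjected libraries (-0.60 ± 0.10 SE, adjusted p = 0.000175). The spliceosome ubiquitin ligase Prpf19 was higher at 117 ± 3.15 against 75.7 ± 4.18 CPM (SD, n = 4). Hnrnpab rose by 0.53 and Hnrnpd fell by 0.37, the helicase Dhx32 rose by 1.55, and Ddx19b, of messenger RNA export, fell by 0.59.

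Translation genes were called in both directions. Initiation and elongation factors were 14 higher and 24 lower of 64, but 23 higher and 22 lower with only the 8 libraries compared and 22 higher and 21 lower without the second ID8-FSHR library. Nucleolar ribosome biogenesis genes were 7 higher (21.2%) and 10 lower (30.3%) of 33. The latter were 10 higher and 6 lower with only the 8 libraries compared, 9 and 5 without the second ID8-FSHR library, 9 and 6 without uninjected replicate 3, and 8 and 6 with median-of-ratios size factors. Eif3f, an initiation factor subunit, was at 155, 162, 167 and 165 CPM in ID8 and 285, 259.8, 281 and 287 CPM in uninjected libraries, and Eef1b2, an elongation factor subunit, at 334, 297, 306 and 301 against 507, 481, 519.8 and 503 CPM. Both fell without overlap of the groups (-0.78 and -0.70 log2 units). Eif2ak3, the kinase PERK of the unfolded protein response, fell by 1.24. Of 35 aminoacyl tRNA synthetases, 15 were higher and 6 lower (median 0.05), with the cytosolic valyl enzyme Vars among the lower ones (-1.20). The nucleolar protein Nop14 rose by 0.83 and the pseudouridine synthase Dkc1 fell by 0.72. Of 13 small nucleolar RNA host genes 4 were higher (30.8%) and 3 lower (23.1%), near or below the shares over all genes, with Snhg18 at 20.7 against 1.08 CPM. Of 14 small nucleolar and Cajal body RNA genes 0 were higher and 3 lower (21.4%), and the latter count ran from 0 to 3 over the settings.

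The proteasome, the protease of ubiquitin-tagged proteins, rose broadly and by little. Of 49 tested genes whose symbol starts as proteasome subunits do, 30 were higher and 1 lower (median 0.28), and none changed 4-fold. Without uninjected replicate 2, 22 were higher and 0 lower. The list is by symbol and also holds Psmc3ip, a recombination cofactor, among the higher ones. Psmc2, a regulatory ATPase, was at 189, 171, 176 and 188 CPM in ID8 and 66.7, 64.8, 68.8 and 71.1 CPM in uninjected libraries (1.42 ± 0.11 SE, adjusted p = 2.52e-07). Psme2, an interferon-inducible activator, was at 142, 165, 85.4 and 107 against 74.2, 71.1, 81.2 and 79.4 CPM (0.71 ± 0.22, adjusted p = 0.0122), with ID8 replicate 3 close to the uninjected range. Chaperonin and heat shock genes were 30 higher and 8 lower of 70, with the small heat shock protein Hspb8 at 110.4 ± 12.3 against 0.0792 ± 0.0739 CPM (SD, n = 4). Ubiquitin-specific proteases were 18 higher (40.9%) and 13 lower (29.5%) of 44, against 32.7% and 31.4% over all genes, with Usp54 up by 3.27. F-box proteins were 22 higher (37.9%) and 18 lower (31%) of 58, close to the shares over all genes. Without the second ID8-FSHR library, 7 of the ubiquitin-specific proteases were lower, and without ID8 replicate 4 8 were.

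Lysosomal and secretory genes were called in both directions. Cathepsins and cystatins were 7 higher and 7 lower of 21 (33.3% each), close to the shares over all genes. The inhibitor Cst3, abundant in macrophages, was at 301, 357, 379.9 and 312 CPM in ID8 and 713, 598, 619.7 and 645 CPM in uninjected libraries, and its relative Cstb at 73.9, 61.8, 64.7 and 71.2 against 21.8, 17.6, 22.8 and 24 CPM. The first fell and the second rose. The protease Ctse fell by 2.44. Serpins were 10 higher and 7 lower of 21, led by the collagen chaperone Serpinh1 at 280.4 ± 29.4 against 0.974 ± 0.991 CPM (SD, n = 4). Autophagy genes were 10 higher (28.6%) and 13 lower (37.1%) of 35, near the shares over all genes. They were 15 and 10 with only the 8 libraries compared and 16 and 10 without the second ID8-FSHR library. Log2 fold changes were 2.05 for Gabarapl1 and -1.64 for Atg16l2. Rab GTPases were 17 higher (31.5%) and 22 lower (40.7%) of 54, with the ciliary Rab34 up by 3.42. Coat proteins of secretory vesicles were 9 higher and 2 lower of 22 (median 0.09), and glycosyltransferases 16 higher and 28 lower of 62 (median -0.35).

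Genes of the nuclear envelope and clock close the survey. Nuclear pore and lamina genes were 15 higher and 7 lower of 31. Lmna, which makes lamins A and C, was at 218, 223, 189 and 214 CPM in ID8 and 41.2, 63.7, 45.9 and 34.5 CPM in uninjected libraries (2.19 ± 0.17 SE, adjusted p = 2.07e-07), and the nuclear envelope spectrin Syne2 was at 849, 815, 983 and 938 against 111, 103, 103 and 114 CPM. Circadian clock genes were 5 higher (25%) and 6 lower (30%) of 20, near or below the shares over all genes, with 4 lower without the second ID8-FSHR library. The repressor Bhlhe41 was at 22, 14.5, 17.5 and 20.8 against 87.2, 104, 106 and 110.2 CPM and the repressor Cry2 at 18.7, 18.2, 15 and 20.7 against 7.2, 6.37, 6.04 and 6.45 CPM, so these clock repressors moved apart. Imprinted genes were 11 higher (33.3%) and 8 lower (24.2%) of 33, near or below the shares over all genes. The small leucine-rich proteoglycan Dcn was at 458, 407, 487 and 476 against 5.27, 1.37, 4.69 and 4.33 CPM and the tetraspanin Cd81 rose by 1.15.

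Some genes commonly used to normalise expression were called in each direction. Of 20, 7 were higher (35%), 5 lower (25%) and 8 not called, near the 32.7% and 31.4% of all genes. Pgk1, a glycolytic kinase, was at 122, 124, 92.5 and 105 CPM in ID8 and 60.9, 58.7, 62.8 and 66.5 CPM in uninjected libraries (0.83 ± 0.15 SE, adjusted p = 0.000279). Rplp0, a ribosomal stalk protein, was at 762, 745, 741 and 760.0 against 1354, 1237, 1389 and 1368 CPM (-0.83 ± 0.06, adjusted p = 1.51e-07). Each was separated between groups. The higher genes included Cyc1 (0.79), the RNA polymerase subunit Polr2a (0.56), Ywhaz (0.46) and the importin Ipo8 (0.41). The other lower genes were Rpl13a (-0.87), the lysosomal enzyme Gusb (-0.67), Eef1a1 (-0.59) and Tbp (-0.23). Tbp lost its call with median-of-ratios size factors (-0.17) and without the second ID8-FSHR library in the shared fit (-0.14).

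Actb, the cytoplasmic actin, was at 4173, 4488, 3525 and 4011 CPM in ID8 and 5059, 4495, 4641 and 4837 CPM in uninjected libraries and did not pass the test (-0.23 ± 0.13 SE, adjusted p = 0.125). Gapdh was at 857, 1030.2, 696 and 830.3 against 902, 782, 830.3 and 773 CPM (0.05 ± 0.14), and Ppia, a cyclophilin, at 434, 436, 379.5 and 416 against 422, 412, 439 and 421 CPM (-0.02 ± 0.06). The groups overlapped for Gapdh and Ppia. Hprt, B2m, Sdha and Tfrc were not called either. Sdha passed the test with DESeq2 (0.18), with median-of-ratios size factors (0.18), with only the 8 libraries compared (0.20) and without the second ID8-FSHR library (0.20). Several of these genes have processed pseudogenes, and no source used here says how the counting treated reads that fit more than 1 place. For 350 genes the 95% interval of the log2 fold change lay within -0.2 and 0.2. Among the most abundant of them were the dynein heavy chain Dync1h1 at 725 ± 32.9 against 706 ± 29.3 CPM, the G protein subunit Gnas at 528 ± 13.3 against 555 ± 10.5 CPM and the remodeller Chd4 at 522 ± 29.8 against 515 ± 30.9 CPM (SD, n = 4). Scaled over only the 8 libraries compared, Dync1h1 and Chd4 were 0.12 and 0.10 higher in ID8 on the log2 scale.

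**Figure D5:**
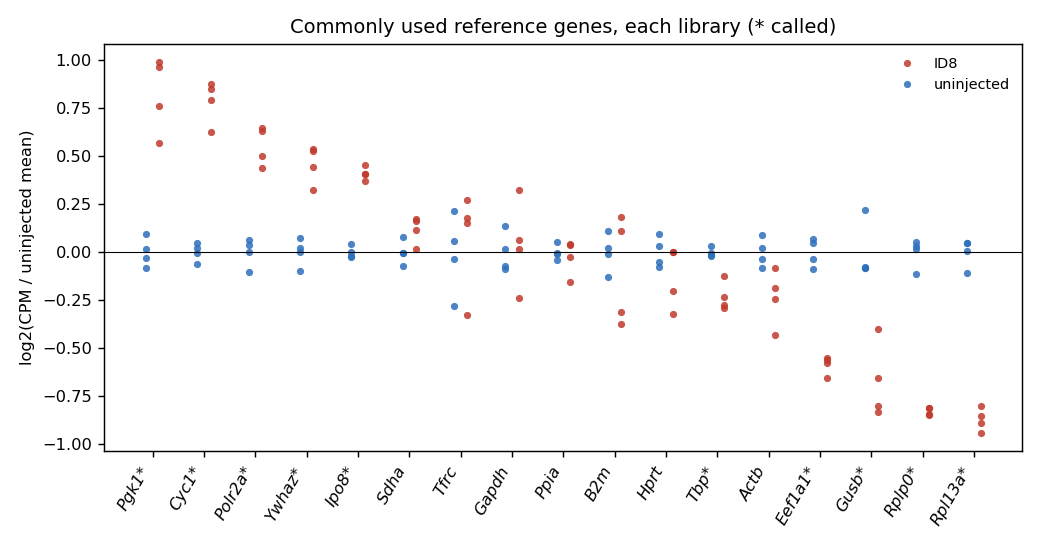
Log2 ratio of each library's CPM to the uninjected mean for commonly used reference genes, with called genes starred. Pgk1 stands highest in ID8 (log2 fold change 0.83) and Rpl13a lowest (-0.87), and the points of Gapdh and Ppia overlap between groups.

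The ID8-FSHR libraries, which share the uninjected controls, gave the following levels for genes that led the comparison. Mal2 was at 241, 88.6, 211 and 211 CPM, Pax3 at 36.8, 15.5, 32.1 and 29.4 CPM and Pnliprp1 at 75.8, 17, 46.8 and 21.5 CPM. Among the decreases, Pik3c2b was at 12.9, 18.9, 13.3 and 7.81 CPM and Xist at 385, 809, 525 and 365 CPM. The second ID8-FSHR library was the lowest of the 4 for Defb29, at 8.41 CPM against 20.1 to 23.8 CPM in the others, and for the chromosome 15 level.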

How the data were processed

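Deposited gene counts, whole numbers of reads per gene, were used as the authors gave them. The submitters' processing notes name bcl2fastq 2.20, STAR 2.7.9a, Subread 1.6.4 with featureCounts and the build GRCm38.p6. No source used here gives its strand and multi-mapping settings. Per the labels, cell RNA (100 ng) was made into ribosome-depleted libraries. Groups came from the labels, which call the 4 samples of each group biological replicates. Library totals ran from 47419608 to 64333677. Bounds for genes with no uninjected count rest on a floor of 3 counts over the 4 uninjected libraries, which covers counting error only. No pair of replicates matched within sampling noise.

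All 12 libraries were fitted together in R 4.3.3 with edgeR 4.0.16 (default filter on low counts, TMM scaling, quasi-likelihood test, Benjamini-Hochberg adjustment over 16915 of 55401 genes, threshold 0.05). The 3 groups therefore share the filter, the scaling and the estimate of the spread. The median log2 fold change over the genes tested was -0.03. It was 0.04 with only the 8 libraries compared and 0.06 without the second ID8-FSHR library. In simulated counts for 16915 genes, 67 genes were given a 1.5-fold, 67 a 2-fold and 66 a 4-fold change, up or down. The fit recovered 47.8%, 85.1% and 93.9% of them. Far fewer genes changed there than in the data, where 64.1% were called, so these rates do not describe the power of this comparison. Alternatives were DESeq2 1.42.0, limma 3.58.1, other scalings, filters and thresholds, the replicate block and leaving out each library. Tables and plots used Python 3.11.15 with pandas 2.3.3 and matplotlib 3.10.9. RefSeq promoters were matched by symbol.

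Named genes are the 12 largest increases and decreases (called, average log2 CPM of at least 3, groups without overlap, outside the marker lists, antigen receptor segments, predicted models and genes singled out earlier), the up to 3 largest called changes at that level in each list with at least 5 tested, the reference genes, the 10 most abundant genes with a 95% interval within 0.2 of no change, and the listed long non-coding RNAs at that level. Some items that the rule names are not reported here. Other genes were named after their values were seen. Members and lists were chosen with earlier results of these data known.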

Additional observations from a re-analysis of the deposited data

Results flagged for a closer look

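In 19 of 324 groups of 4 libraries examined for the named genes, 1 library stood apart from the other 3 by Dixon's criterion, which sets its gap to the nearest library against the group's range. Chance alone gives about 1 in 20 such groups.

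Among the ID8 libraries, replicate 2 was lowest for 3 genes of the B cell and lymphoid decreases: Aff3 at 9.70 CPM, Hepacam2 at 7.40 CPM and Bcl11a at 10.6 CPM. ID8 replicate 3 was highest for the G protein regulator Rgs2 at 97.8 CPM and lowest for the RNA-binding Hnrnpab at 349.9 CPM. ID8 replicate 4 was highest for the zinc importer Slc39a10 at 167 CPM.

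Among the uninjected libraries, replicate 4 was highest for Gja1 at 2.33 CPM, Cyp1b1 at 1.74 CPM and the choline transporter-like Slc44a3 at 0.174 CPM. Uninjected replicate 2 was highest for Tspan8 at 0.148 CPM, Ccn2 at 0.332 CPM, Tuba1a at 58.5 CPM and Xist at 1623 CPM, and lowest for Myh10 at 1.55 CPM. Uninjected replicate 1 was highest for Aqp9 at 50.9 CPM, Idh2 at 60.3 CPM and Gusb at 343 CPM, and lowest for Kdm6a at 109 CPM. Uninjected replicate 3 was highest for Myc at 176 CPM.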

How the results depend on the processing

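The counts of genes higher and lower stayed within 1.5 times their main values under every setting run, and no gene was called in the opposite direction in any of them. Higher and lower calls were 6080 and 5059 with DESeq2, 5531 and 5418 with limma-voom, 5916 and 4808 with median-of-ratios size factors, and 4693 and 4922 with a filter of 1 CPM in 4 libraries. That filter left 455 genes at least 4-fold lower. Calls higher made up 48.8% to 56.9% of all calls over the settings. Leaving out 1 library gave 5270 to 5457 genes higher, 4890 to 5119 lower, 2233 to 2332 at least 4-fold higher and 724 to 830 at least 4-fold lower. Without the second ID8-FSHR library in the shared fit, 6292 were higher and 4771 lower.

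With only genes under 4-fold, the chromosome 15 shift was 0.46, that of chromosome 14 was -0.20 and that of chromosome 12 was -0.13. With only genes of average log2 CPM of at least 3, chromosome 14 was at -0.23 and X at -0.16. X was at -0.16 with the 1 CPM filter and at -0.18 with only the 8 libraries compared. Leaving out 1 library gave -0.24 to -0.20 for chromosome 18. Every chromosome shift named kept its sign in all settings run; the cause of these moves was not tested.

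With the replicate number as a block, 5404 genes were higher and 5177 lower. Same-numbered libraries correlated between -0.02 and 0.04 after their group means were removed, and differently numbered ones between -0.04 and 0.05. These correlations gave no sign of pairing by number but cannot exclude it. Genes with no uninjected count have their bound at 3 counts over the 4 uninjected libraries.

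Of the counts of list members, 128 values over the settings, in 37 of the counts, moved by over 1.5 times and 2626 did not. The moves were most frequent with only the 8 libraries compared and without the second ID8-FSHR library. In 11 lists outside cell markers the balance of higher and lower turned in at least 1 setting. Beside those given above, these were ABC transporters (14 and 13 without the second ID8-FSHR library), Rab GTPases (19 and 17 without it), circadian clock genes (5 and 4 without it), metallothioneins and zinc transporters (7 and 5 without it), orphan receptors (26 and 23 without it) and cytochrome P450 genes (8 and 9 with the 1 CPM filter). With that filter, 12 potassium channels and 1 protocadherin were lower. With DESeq2, 6 genes of NAD and tryptophan metabolism were higher.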
